A study of Rattus norvegicus with 16 samples.

Results

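The genes described are 41 genes of the cell cycle and of DNA replication, given as a list of symbols. The rule uses no measured value, but the list was chosen with earlier results of these data known. Of these, 40 had a row in the liver table, which holds 22587 genes, and Ccnb2 was not analysed here. They were measured by mRNA sequencing of flash-frozen liver from male Wistar-Wyoto rats aged 13 weeks. The 4 groups of 4 libraries each came from ADREX rats (total bilateral adrenalectomy, which removes the source of corticosterone and adrenaline) after 4 hours in ozone at 0.8 ppm, ADREX rats after 4 hours in air, SHAM (sham-operated) rats after the same ozone exposure, and SHAM rats after air. The series asks how adrenal stress hormones regulate the liver after an acute ozone exposure. Groups were taken from the library titles. The labels conflict for ADREX air: those 4 libraries are titled air, but their treatment entry reads ozone, so each comparison with ADREX air rests on the titles. Nothing in the labels states that each library is a separate animal, and p-values measure the spread between these libraries. Whole liver was sequenced, so fewer cells of a type and less RNA per cell cannot be told apart.

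Cells divide by passing from a resting state through G1, S phase and mitosis. D cyclins with Cdk4 or Cdk6, and then E cyclins with Cdk2, phosphorylate the retinoblastoma protein (Rb1), which releases E2F factors to transcribe the genes of DNA replication. Cdc6 and Cdt1 load the Mcm helicase onto replication origins, and A and B cyclins with Cdk1 then drive mitosis, which ends when the anaphase promoting complex destroys them. Most hepatocytes of an adult rat rest outside this cycle and enter it again after loss of liver tissue, so transcripts of mitosis are scarce in intact liver.

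Values are normalized counts, the read count of a gene divided by 1 size factor per library, and 1 read was worth 1.05 to 2.01 of them. The libraries held 8372891 to 14096246 reads. A count of 0 allows up to 3 reads, which equals 3.14 to 6.02 normalized counts, and this limit covers counting error only. A gene was tested when its mean over the 16 libraries was at least 14.7, which is 1 CPM of the median library. This held for 32 of the 40 genes. The 8 low ones were Ccna2, Cdc6, Rrm2, Cdc20, Plk1, Bub1b, Birc5 and Ube2c, with means of 1.76 to 14.2. Aurkb, at 16.1, lay just inside the limit and Cdc20, at 14.2, just outside it. The table is not scaled to gene length, so values are compared between libraries and not between genes.

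Of the 40 genes, 28 had a promoter of 300 bases in the RefSeq table of build GRCr8, reaching from 250 bases before to 50 bases after the annotated start. Promoters of Cdk1 and Top2a, and of Mcm6 and Mcm7, are shown because these mitosis and licensing genes were high together in single libraries. They were picked after their values were seen. Capitals mark matches on either strand to 3 kinds of motif, written here as searched. The CHR (TTTGAA, or TTCAAA on the other strand) is bound in human cells by the MuvB complexes that switch mitosis genes on and off, the CCAAT box (ATTGG on the other strand) by NF-Y, and the E2F motif by E2F factors. The letters searched for E2F were TTCCCGC and, as variants with other letters in the middle, TTGGCGC, or else TTCGCGC, or else TTGCCGC, each on both strands. Coordinates are chr20:19265043-19265342 on the plus strand for Cdk1, and on the minus strand chr10:84473044-84473343 for Top2a, chr13:42404303-42404602 for Mcm6 and chr12:22163129-22163428 for Mcm7.
Cdk1: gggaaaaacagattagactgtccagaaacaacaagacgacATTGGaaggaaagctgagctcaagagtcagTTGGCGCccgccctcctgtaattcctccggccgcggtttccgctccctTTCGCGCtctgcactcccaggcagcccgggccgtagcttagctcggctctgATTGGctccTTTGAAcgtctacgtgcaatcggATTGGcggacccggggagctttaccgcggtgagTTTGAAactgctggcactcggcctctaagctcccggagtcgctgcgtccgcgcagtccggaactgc
Top2a: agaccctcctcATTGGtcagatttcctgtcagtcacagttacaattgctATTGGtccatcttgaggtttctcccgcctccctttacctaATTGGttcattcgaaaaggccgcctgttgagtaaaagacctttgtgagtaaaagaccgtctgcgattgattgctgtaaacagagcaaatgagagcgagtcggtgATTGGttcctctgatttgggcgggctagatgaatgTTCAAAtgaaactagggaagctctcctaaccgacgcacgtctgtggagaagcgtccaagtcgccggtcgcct
Mcm6: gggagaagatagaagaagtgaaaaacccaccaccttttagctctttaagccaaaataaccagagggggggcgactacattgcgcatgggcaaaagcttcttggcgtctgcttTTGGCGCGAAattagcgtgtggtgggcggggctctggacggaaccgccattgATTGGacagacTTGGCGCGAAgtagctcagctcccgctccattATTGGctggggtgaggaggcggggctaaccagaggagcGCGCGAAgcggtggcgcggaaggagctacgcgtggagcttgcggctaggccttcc
Mcm7: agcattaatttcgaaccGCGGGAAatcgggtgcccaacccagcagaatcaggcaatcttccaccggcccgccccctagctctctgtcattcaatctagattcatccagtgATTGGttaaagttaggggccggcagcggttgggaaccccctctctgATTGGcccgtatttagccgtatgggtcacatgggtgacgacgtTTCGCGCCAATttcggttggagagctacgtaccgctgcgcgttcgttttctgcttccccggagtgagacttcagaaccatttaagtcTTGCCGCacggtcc

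The Cdk1 promoter held 2 CHR matches, at 72 and 16 bases before the start, 3 CCAAT boxes, the nearest 49 bases before it, and 2 E2F matches further out. The Top2a promoter held 1 CHR match 22 bases before the start and 4 CCAAT boxes. Mcm6 had no CHR match but carried E2F matches in 3 places, the nearest 5 bases before the start. In Mcm6 and Mcm7 some E2F matches overlap on opposite strands, and in Mcm7 one of them overlaps a CCAAT box, so their capitals run together. A CHR was present in 7 of the 11 mitosis promoters (63.6%), those of Cdk1, Cdc20, Plk1, Bub1b, Birc5, Mki67 and Top2a, against 11.4% of the 9075 promoters of all genes tested. An E2F motif was present in the promoters of all 5 Mcm genes that have one, in 2 of 11 mitosis promoters (18.2%) and in 1540 of the 9075 promoters of all genes tested. CCAAT boxes were present in 18 of the 28 promoters (64.3%), against 37.7%. Over all 27457 promoters of the table a CHR was present in 18.1%, a CCAAT box in 37.7% and an E2F motif in 2749. A match describes the letters of this window and not a site of binding.

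**Figure D1:**
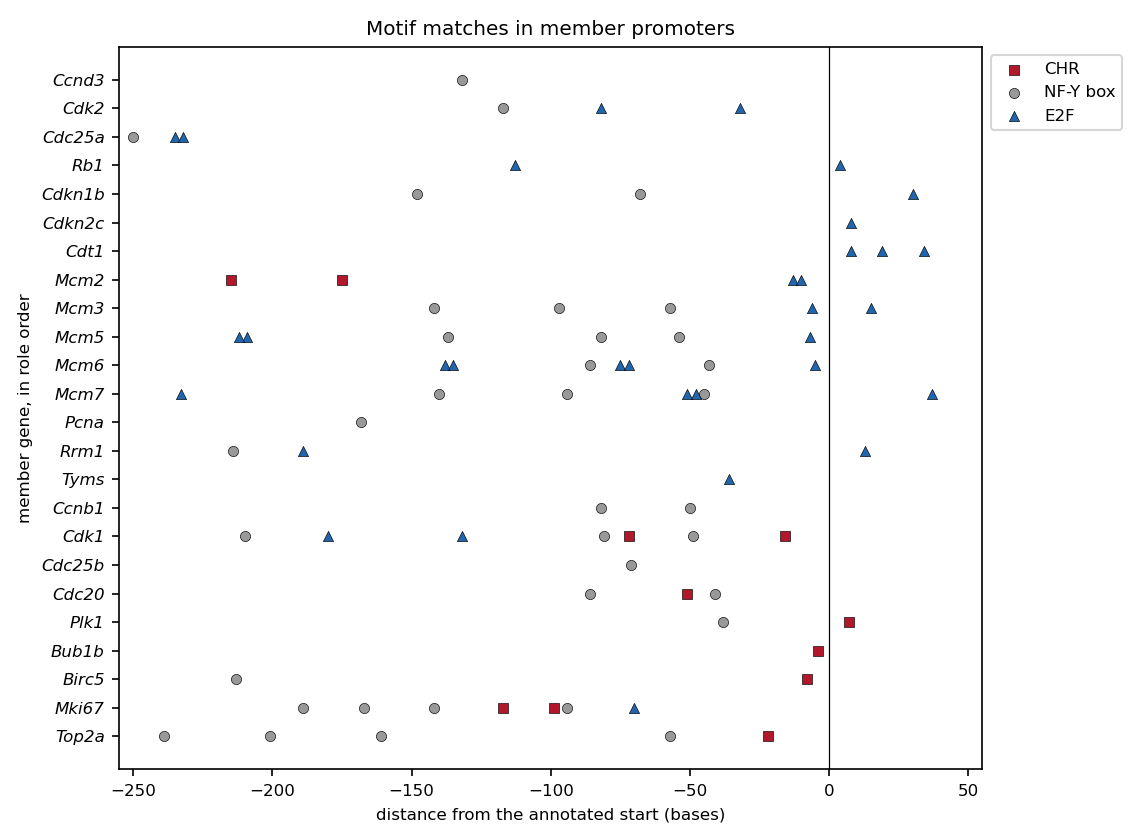
Motif matches in the 24 promoters that held at least 1, by distance from the annotated start (bases, horizontal axis) and gene in role order (vertical axis). Squares are CHR matches, circles CCAAT (NF-Y) boxes and triangles E2F matches. The CHR squares lie mainly among the mitosis genes at the bottom, and all 5 Mcm genes have E2F triangles.

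Single libraries stood apart in these genes. ADREX air 67 had the highest value of the 16 libraries in 9 of the 15 mitosis genes, and their summed level was 582 normalized counts there, against 201 to 229 in the other ADREX air libraries, 216 to 452 in ADREX ozone, 251 to 364 in SHAM ozone and 222 to 353 in SHAM air. ADREX ozone 84 was highest in 5 of the 8 licensing genes. The 6 Mcm genes summed to 773 there, to 326 to 478 in the other ADREX ozone libraries, and to 313 to 522 in the other 3 groups.

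Outside the list, ADREX air 67 was highest in 11 of 40 other mitosis genes and ADREX ozone 84 in 8. In 43 other replication genes ADREX ozone 82 was highest most often, in 12, against 7 for ADREX ozone 84 and 2 for ADREX air 67. Neutrophil markers summed to 18.4 RPM (counts scaled to the reads of the library) in ADREX air 67 and to 1.02 to 7.12 RPM elsewhere, and S100a9 was the only 1 of the 5 neutrophil markers abundant enough to test. Elane was at 0 in all 4 ADREX air libraries, and Mpo and Camp each in 2 of them. The part of these cells in the mitosis genes was not tested. Results without ADREX air 67 and ADREX ozone 84 are given below for E2f1, Mcm6, Mcm7 and the counts of calls. Changes of other genes are given with both libraries included and can depend on them.

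**Figure D2:**
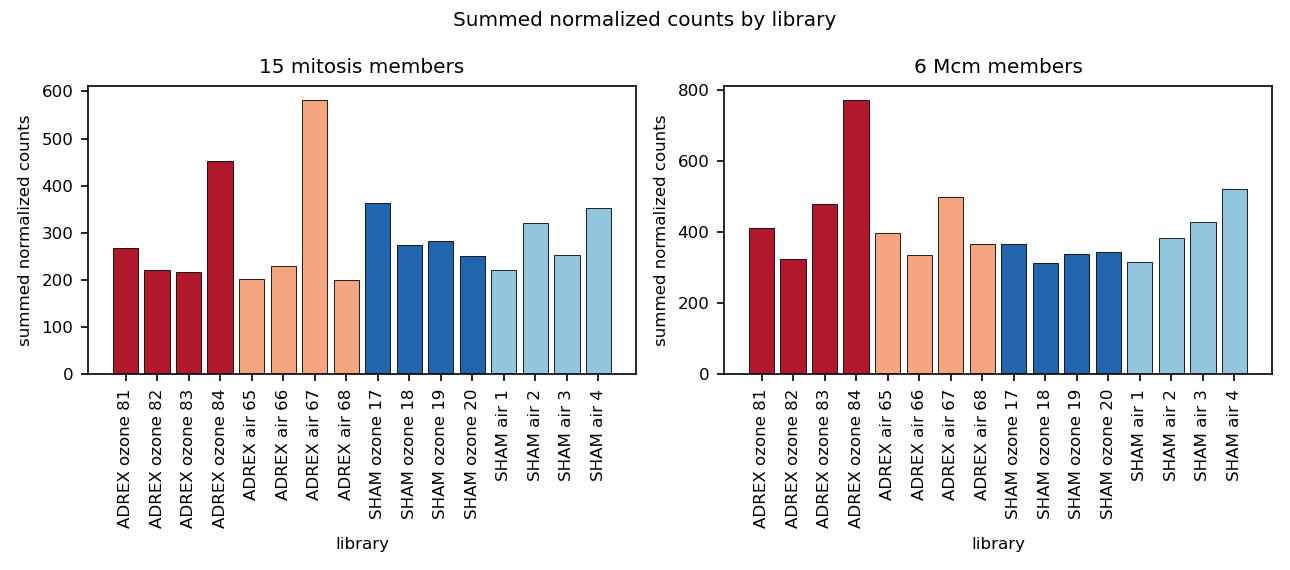
Summed normalized counts of the 15 mitosis genes (left) and the 6 Mcm genes (right), 1 bar per library, coloured by group with ADREX ozone, ADREX air, SHAM ozone and SHAM air from left to right. ADREX air 67 stands out at 582 in the mitosis genes, and ADREX ozone 84 at 773 in the Mcm genes.

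Between ADREX and SHAM under ozone, 3 of the 32 genes tested passed (limma, Benjamini-Hochberg adjusted p under 0.05 over 12791 genes). E2f1 and Ccnd1 were higher in ADREX and Cdk6 was lower. Those 3 are 9.38% of the genes tested, beside 12.5% of all genes (1601), so the share was no larger than the background. By direction, 2 were higher, beside 6.04% of all genes, and 1 lower, beside 6.48%. An unadjusted p under 0.05 was found for 8 of the 32, beside 31.2% of all genes, and edgeR and DESeq2 each called 3. The libraries of both groups did not overlap in 5 of 32 genes, beside 20.5% of all genes. The median log2 change of the 32 genes was 0.25, against 0.11 over all genes tested. Leaving out ADREX air 67 and ADREX ozone 84 together also gave 3 calls.

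No gene of the 32 passed in the other 4 comparisons. For ADREX against SHAM in air the count was 0 (background 3.53%, 451 genes), with 5 genes at an unadjusted p under 0.05, 0 calls by edgeR and 1 by DESeq2 (Cdkn2c). For ozone against air it was 0 in ADREX (background 0.125%, 16 genes), with 5 at an unadjusted p under 0.05, 1 call by edgeR (Cdk6) and 2 by DESeq2 (Cdk6 and E2f1). In SHAM it was 0 (background 1.58%, 202 genes), with 6 at an unadjusted p under 0.05 and 0 calls by edgeR and by DESeq2, which gave no adjusted p for Ccne1 and Cdt1. For the difference between both ozone effects, ADREX minus SHAM, the count was 0 (background 0.109%, 14 genes), with 6 at an unadjusted p under 0.05 and 0 calls by edgeR and DESeq2, which gave no adjusted p for Ccne1 and E2f1. Among all genes an unadjusted p under 0.05 was found for 20.2% in air, 17.8% for ozone in ADREX, 18.4% for ozone in SHAM and 12.9% for the difference. The groups did not overlap in 1 of the 32 genes in air (Pcna, beside 9.26% of all genes), in 3 for ozone in ADREX (Aurkb, E2f1 and Cdk6, beside 9.97%) and in 4 for ozone in SHAM (Ccne1, Cdt1, Ccnd2 and Rb1, beside 11.1%). The median log2 change of the 32 genes was 0.14 in air (0.04 over all genes), 0.04 for ozone in ADREX (0.06), -0.06 for ozone in SHAM (0.01) and -0.02 for the difference (0.07).

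Without SHAM air 3, the number of calls was 5 under ozone, 3 in air and 3 for ozone in SHAM. SHAM air 3 is in neither group compared under ozone and enters that test only through the spread shared by all groups. The log2 changes under ozone of Cdk4 (0.42) and Aurkb (1.48), which passed without it, were the same with it. SHAM air 3 held 868 RPM of neural markers, against 45.02 to 108 RPM in the other SHAM air libraries. The part of neural RNA in these counts was not tested. Without ADREX ozone 83, or without SHAM ozone 17, 1 call was left under ozone.

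**Figure D3:**
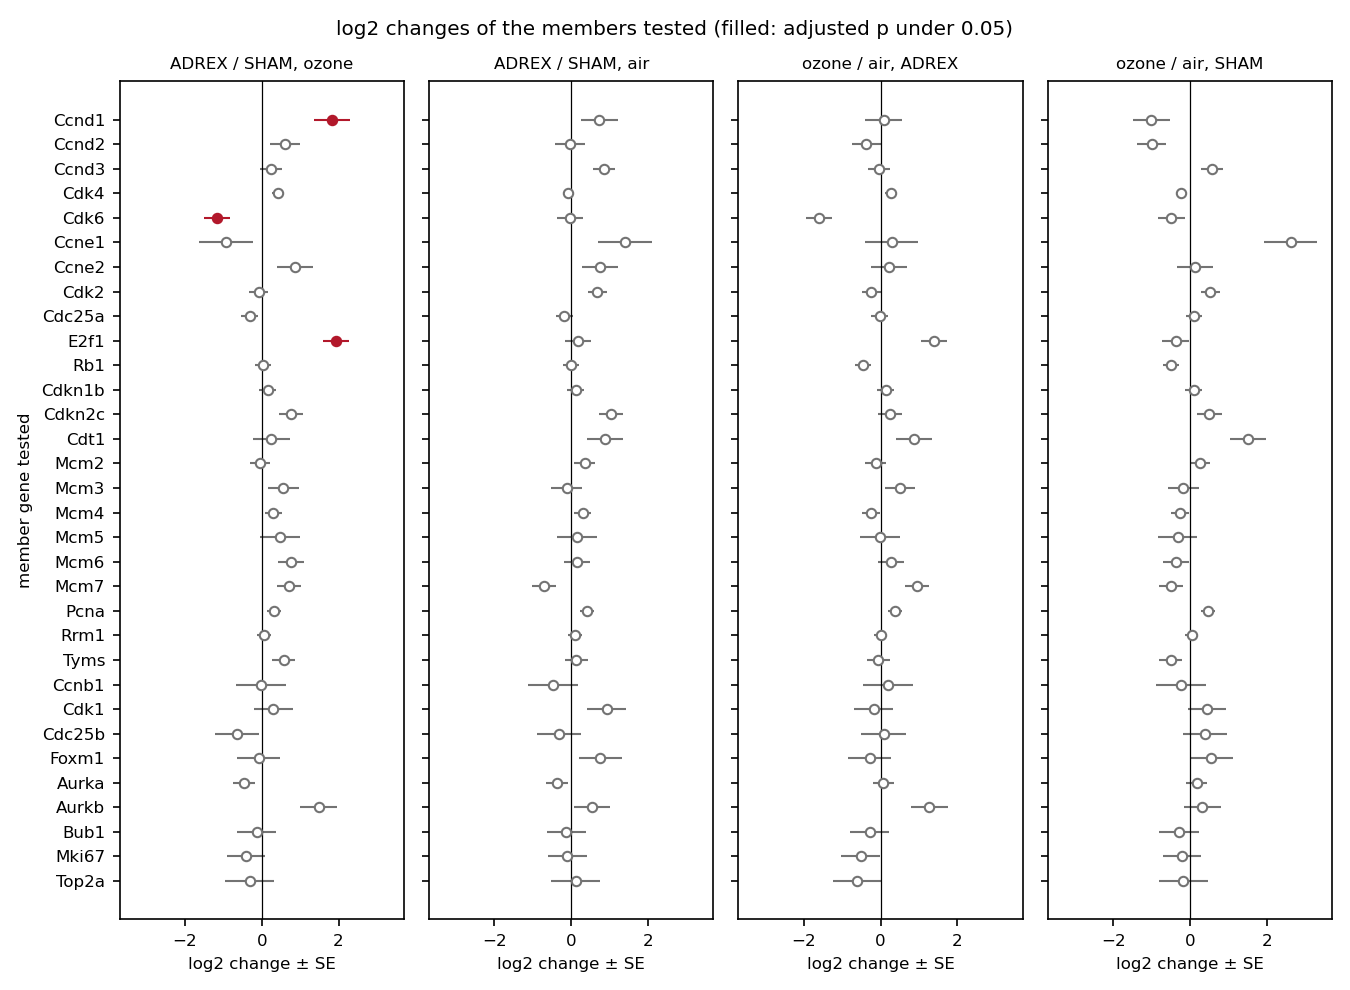
The log2 change with its standard error (horizontal axis) of the 32 genes tested (vertical axis, by role) for ADREX over SHAM under ozone and in air, and ozone over air in ADREX and in SHAM. Filled points passed the test. Only Ccnd1, Cdk6 and E2f1 are filled, all under ozone.

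Among the G1 cyclins and kinases, Ccnd1 was higher and Cdk6 lower in ADREX than in SHAM under ozone. Ccnd1 encodes cyclin D1, which is induced by growth factors and starts the passage through G1. It had 287, 397, 1025 and 764 normalized counts in ADREX ozone libraries 81 to 84, against 89.1, 117, 274 and 190.2 in SHAM ozone libraries 17 to 20. All 4 ADREX ozone libraries lay above all 4 SHAM ozone libraries. The log2 change was 1.83 ± 0.48 (SE; fold 3.56; limma adjusted p = 0.0214). The call was lost without SHAM ozone 17 (adjusted p = 0.0751) and without ADREX ozone 83 (adjusted p = 0.0649).

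In air Ccnd1 had 985, 455, 199.6 and 783 normalized counts in ADREX libraries 65 to 68, against 332, 416, 290.0 and 227 in SHAM libraries 1 to 4. These groups overlapped, because ADREX air 67 was the lowest of all 8. The log2 change was 0.74 ± 0.48 (adjusted p = 0.389). Ozone against air gave a log2 change of 0.09 ± 0.48 in ADREX (adjusted p = 0.949) and of -1.01 ± 0.48 in SHAM (adjusted p = 0.273), and the difference between those ozone effects was 1.09 ± 0.68 (adjusted p = 0.5003). ADREX air 67 lay far below the other ADREX air libraries. Each Ccnd1 change that uses ADREX air is given only with that library included and rests partly on it.

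Cdk6 encodes a kinase partner of the D cyclins. It had 28.6, 10.5, 14.3 and 23.03 normalized counts in ADREX ozone libraries, against 49.8, 45.3, 42.4 and 29.5 in SHAM ozone libraries. The groups did not overlap, although the highest ADREX ozone value and the lowest SHAM ozone value lay close together. The log2 change was -1.16 ± 0.34 (2.24-fold lower; limma adjusted p = 0.0368). In ADREX air it had 75.3, 63.5, 65.5 and 31.8 normalized counts, all above the ADREX ozone libraries, and ozone against air in ADREX gave a log2 change of -1.61 ± 0.34 (adjusted p = 0.0768). SHAM air libraries had 44.6, 50.4, 60 and 82.3, and ozone against air in SHAM gave -0.48 ± 0.34 (adjusted p = 0.461). Cdk6 was thus lowest in the group with both adrenalectomy and ozone, and the difference between the ozone effects did not pass (log2 -1.12 ± 0.49, adjusted p = 0.341).

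The call for Cdk6 under ozone held in 18 of 27 alternatives. It was lost with the neural marker level as a covariate (adjusted p = 0.0708) and without the 3 libraries highest in neural markers (adjusted p = 0.156). It was also lost with no filter on low values, with only both ozone groups in the fit, and without any 1 of SHAM ozone 17, 18 and 19 and ADREX ozone 82 and 83, with adjusted p from 0.0622 to 0.107.

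Cdk4, the other kinase partner of the D cyclins, had 581, 632, 636 and 747 normalized counts in ADREX ozone libraries, against 492, 494, 439.7 and 504 in SHAM ozone libraries. These groups did not overlap either, but the change was small and did not pass (log2 0.42 ± 0.15, adjusted p = 0.0683). In air Cdk4 had 477, 525, 526 and 622 normalized counts in ADREX libraries, against 573, 592, 438 and 678 in SHAM libraries, with a log2 change of -0.07 ± 0.15 (adjusted p = 0.798). Ccnd2 (cyclin D2) and Ccnd3 (cyclin D3) did not pass. Ccnd2 averaged 26.4 ± 6.05 normalized counts in SHAM ozone and 54.1 ± 13.2 in SHAM air (SD, n = 4 each), without overlap (log2 -1.0 ± 0.39, adjusted p = 0.192). Ccnd3 averaged 344 ± 89.01 in ADREX air and 198 ± 85 in SHAM air, and its groups overlapped (log2 0.86 ± 0.29, adjusted p = 0.115).

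**Figure D4:**
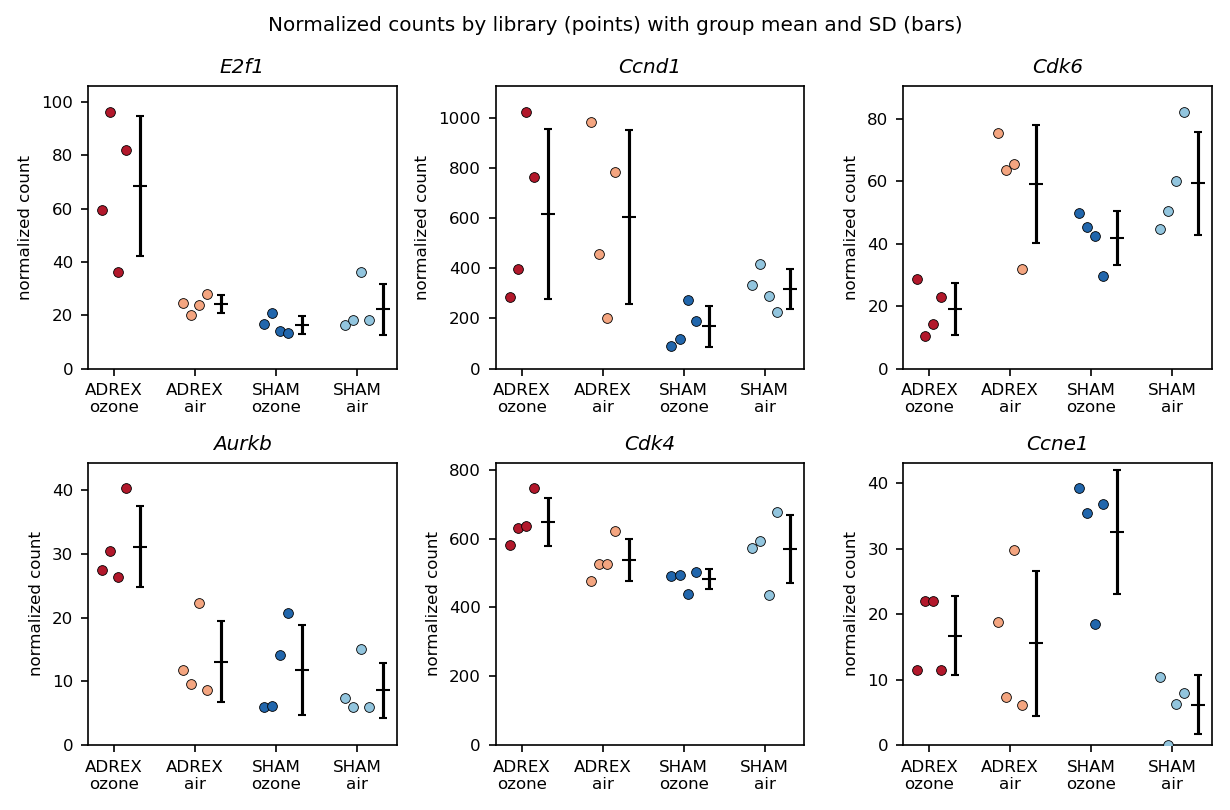
Normalized counts of E2f1, Ccnd1, Cdk6, Aurkb, Cdk4 and Ccne1 (vertical axes from 0) in each library (points) with the group mean and SD (bars, n = 4). In E2f1 and Aurkb all 4 ADREX ozone points lie above the SHAM ozone points, in Cdk6 they lie below them, and in Ccne1 the SHAM ozone points lie above the SHAM air points.

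Among the genes of the step into S phase, E2f1 showed the change with the smallest adjusted p of the list. E2f1 encodes an activator of replication genes that is itself an E2F target. It had 59.5, 96.4, 36.2 and 82.04 normalized counts in ADREX ozone libraries, against 16.6, 20.8, 14.1 and 13.3 in SHAM ozone libraries. In ADREX air it had 24.7, 20.1, 23.8 and 28.1, and in SHAM air 16.4, 18.02, 36.3 and 18.1. The 4 ADREX ozone libraries exceeded all others except SHAM air 3, which at 36.3 stood level with ADREX ozone 83.

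Under ozone, E2f1 averaged 68.5 ± 26.4 normalized counts in ADREX and 16.2 ± 3.37 in SHAM (SD, n = 4 each), a log2 change of 1.94 ± 0.34 (fold 3.85; limma adjusted p = 0.00228). It was called in all 27 alternatives that tested it, with log2 changes of 1.52 to 2.21. Without ADREX air 67 and ADREX ozone 84 the log2 change was 1.83 (adjusted p = 0.00819). In air ADREX against SHAM gave 0.19 ± 0.34 (adjusted p = 0.781). Ozone against air gave 1.38 ± 0.34 in ADREX (adjusted p = 0.096, no overlap) and -0.37 ± 0.34 in SHAM (adjusted p = 0.567). The difference between these ozone effects was 1.76 ± 0.48 (adjusted p = 0.156), so a larger ozone effect in ADREX was not shown across all genes tested.

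Ccne1 encodes cyclin E1, which activates Cdk2 at the start of S phase. It had 39.3, 35.5, 18.5 and 36.9 normalized counts in SHAM ozone libraries, against 10.4, 0, 6.25 and 8.03 in SHAM air libraries. No SHAM air library reached the lowest SHAM ozone library, but the counts are small and the library at 0 has a limit of 3.603 normalized counts. The log2 change was 2.63 ± 0.69 and did not pass (adjusted p = 0.0657). It passed with a pseudocount of 10 (adjusted p = 0.0384), with array quality weights (adjusted p = 0.0130) and without SHAM air 3 (adjusted p = 0.0438).

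In ADREX, Ccne1 had 11.4, 22, 21.9 and 11.5 normalized counts under ozone, against 18.8, 7.41, 29.8 and 6.11 in air, and these overlapped widely (log2 0.29 ± 0.69, adjusted p = 0.871). The difference between the ozone effects was -2.33 ± 0.98 (adjusted p = 0.334). In air ADREX against SHAM gave 1.40 ± 0.69, with overlap (adjusted p = 0.266). The kinase Cdk2 had 223, 236, 314 and 262 normalized counts in ADREX ozone, 311, 357, 232 and 323 in ADREX air, 270.3, 273, 241 and 304 in SHAM ozone, and 219, 154, 321 and 114 in SHAM air. The SHAM air libraries were spread most. ADREX against SHAM in air gave a log2 change of 0.68 ± 0.25 (adjusted p = 0.142), which passed without SHAM air 3 (adjusted p = 0.0206). Ccne2 (cyclin E2) and Cdc25a, a phosphatase that activates Cdk2, had adjusted p-values of at least 0.217 in every comparison.

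Among the 3 inhibitors none passed by limma. An unadjusted p under 0.05 was found for 1 of them under ozone and for 1 in air. The count from edgeR was 0 in both, and DESeq2 passed 1 in air. Rb1 averaged 150.2 ± 30.6 normalized counts in ADREX ozone and 206 ± 50.1 in ADREX air (SD, n = 4 each; log2 -0.45 ± 0.21, adjusted p = 0.274). In SHAM it averaged 146 ± 24.6 under ozone and 204 ± 28.7 in air (log2 -0.48 ± 0.21, adjusted p = 0.236). SHAM ozone and SHAM air did not overlap in Rb1, while ADREX ozone and ADREX air did. Cdkn1b, which inhibits cyclin E with Cdk2, had 678, 862, 496 and 766 normalized counts in ADREX ozone, 593, 597, 509 and 856 in ADREX air, 512, 686, 823 and 500.0 in SHAM ozone, and 442, 567, 634 and 702 in SHAM air. Its groups overlapped in all 4 comparisons of groups, with log2 changes of 0.09 to 0.15.

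Cdkn2c, which inhibits Cdk4 and Cdk6, averaged 63.2 ± 21.6 normalized counts in ADREX air and 30.7 ± 11.3 in SHAM air (log2 1.03 ± 0.32, adjusted p = 0.0832), and the groups overlapped. It passed by DESeq2 (adjusted p = 0.0490), without SHAM air 3 (adjusted p = 0.0362) and with array quality weights (adjusted p = 0.0282). Cdkn1a, a CDK inhibitor outside the 41 genes and 1 of 2 tested from a list of other CDK inhibitors, had 119, 192, 75.7 and 67.6 normalized counts in ADREX ozone, against 2916, 816, 2117 and 3217 in SHAM ozone. The groups lay far apart, with a log2 change of -4.26 ± 0.48 (limma adjusted p = 0.000139). In air it averaged 139.6 ± 69.9 in ADREX and 319.8 ± 135 in SHAM (SD, n = 4 each), so SHAM ozone was the group that stood apart. Ozone against air gave a log2 change of -0.29 ± 0.48 in ADREX (adjusted p = 0.796) and of 2.78 ± 0.48 in SHAM (limma adjusted p = 0.00879). The difference between these ozone effects did not pass by limma (log2 -3.08 ± 0.68, adjusted p = 0.0989). Of the 2 genes tested from that list, edgeR called 0 and DESeq2 1 for this difference.

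Among the licensing genes, which load and form the replicative helicase, none of the 7 tested passed. Under ozone, 2 of them had an unadjusted p under 0.05, and edgeR and DESeq2 called 0. Mcm7, a helicase subunit, had 135, 97.4, 155 and 312 normalized counts in ADREX ozone, 68.3, 79.4, 101 and 81.9 in ADREX air, 122, 70.95, 90.3 and 108 in SHAM ozone, and 109, 184, 93.8 and 175 in SHAM air. The value of ADREX ozone 84 was the highest of the 16. Mcm7 was higher under ozone in ADREX (log2 0.95 ± 0.31, adjusted p = 0.166) and lower under ozone in SHAM (log2 -0.48 ± 0.31, adjusted p = 0.415), and neither passed. The difference was 1.43 ± 0.44 (adjusted p = 0.197), and 1.21 without ADREX air 67 and ADREX ozone 84 (adjusted p = 0.220).

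Under ozone, ADREX against SHAM gave 0.72 ± 0.31 for Mcm7 (adjusted p = 0.130), which passed with the neural marker level as a covariate (adjusted p = 0.0268) and was 0.40 without both libraries that stood apart (adjusted p = 0.314). In air it gave -0.71 ± 0.31 (adjusted p = 0.219). Mcm6 had 42.3, 59.7, 73.5 and 149.7 normalized counts in ADREX ozone, against 43.8, 36.7, 40.3 and 48.7 in SHAM ozone (log2 0.77 ± 0.34, adjusted p = 0.135, and 0.43 without both libraries, adjusted p = 0.340). ADREX ozone 84 was also highest in Mcm3 (63.3) and Mcm5 (56.1). Mcm2 and Mcm4 had 87.8 and 104 there, and their highest values lay in ADREX air libraries. Cdt1, the loader that is destroyed once replication starts, had 22.6, 17.1, 19.6 and 26.5 normalized counts in SHAM ozone, against 5.95, 12.01, 12.5 and 2.01 in SHAM air. Those groups did not overlap (log2 1.51 ± 0.48, adjusted p = 0.115). Cdc6, the other loader, was low, with 0 to 15.8 normalized counts per library.

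Among the genes of the replication fork and of nucleotide supply, none of the 3 tested passed by limma, edgeR or DESeq2, with 1 gene at an unadjusted p under 0.05 in air and 1 for ozone in SHAM. Rrm1, the large subunit of ribonucleotide reductase, had 492, 586, 524 and 596 normalized counts in ADREX ozone, 557, 491, 479.5 and 677 in ADREX air, 454, 588, 621 and 454 in SHAM ozone, and 412, 435, 636 and 586 in SHAM air. Its highest value was 1.64 times its lowest, the smallest such ratio of the 34 genes with reads in every library. Its partner Rrm2, which rises in S phase, was listed at 0 in 10 of 16 libraries and reached 8.94 normalized counts in ADREX air 67. Pcna, the sliding clamp of DNA polymerase, averaged 513 ± 54.7 normalized counts in ADREX air and 385 ± 58.9 in SHAM air, without overlap (SD, n = 4 each; log2 0.42 ± 0.19, adjusted p = 0.219). Under ozone Pcna averaged 672 ± 123 in ADREX and 544 ± 133 in SHAM (log2 0.32 ± 0.19, adjusted p = 0.251). Tyms, which makes thymidylate, averaged 35.3 to 54.5 in the 4 groups and had adjusted p-values of at least 0.203.

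**Figure D5:**
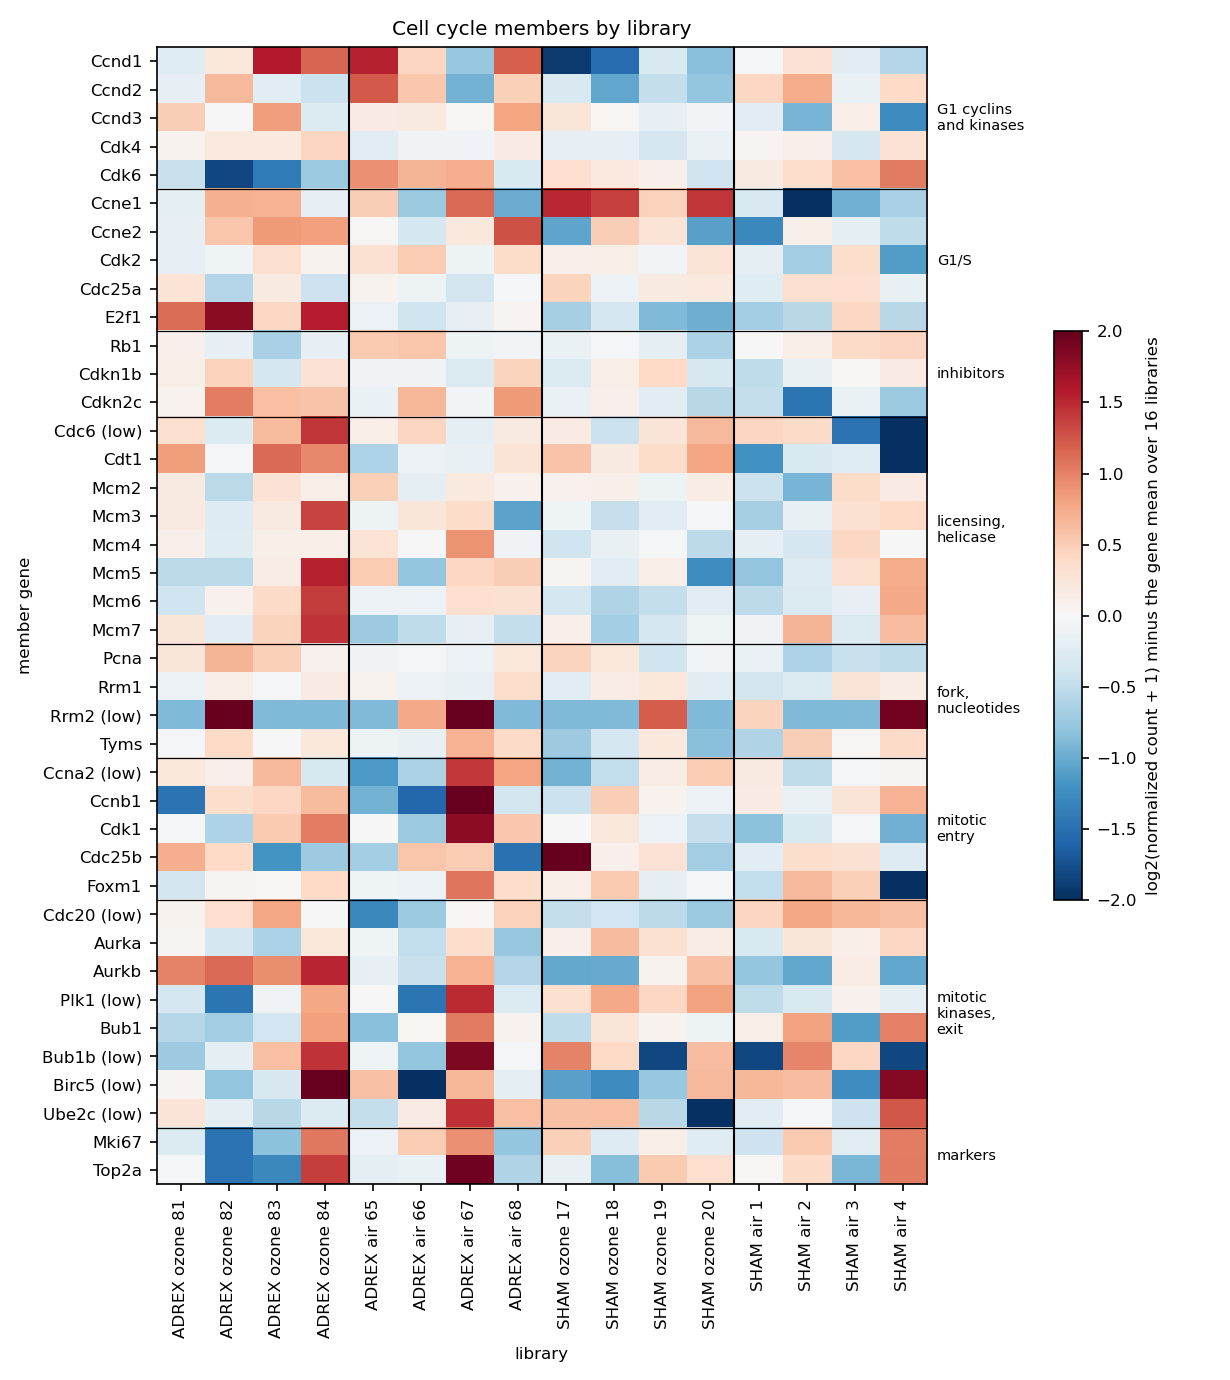
Each of the 40 genes (rows, by role) in each library (columns, grouped), as log2(normalized count + 1) minus the mean of that gene over the 16 libraries. Red is higher and blue lower, and colours end at 2 in either direction. The column of ADREX air 67 is red in most mitosis genes, that of ADREX ozone 84 in most Mcm genes, and E2f1 is red in the 4 ADREX ozone columns.

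Of the 9 mitosis genes tested none passed. Under ozone 1 had an unadjusted p under 0.05, and edgeR and DESeq2 called 0. Top2a, the topoisomerase that untangles chromosomes before they separate, had 33.2, 11.5, 13.2 and 89.2 normalized counts in ADREX ozone, 29.4, 30.7, 133 and 22.01 in ADREX air, 30.2, 18.3, 48.97 and 42.8 in SHAM ozone, and 34.2, 44.4, 17.5 and 70.2 in SHAM air. Mki67, the proliferation antigen, had 22.9, 9.43, 15.4 and 59.01 in ADREX ozone, 25.9, 40.2, 53.6 and 15.9 in ADREX air, 39.3, 23.2, 30.5 and 23.6 in SHAM ozone, and 20.8, 40.8, 23.8 and 58.2 in SHAM air. In both genes each group overlapped each other group. Under ozone, ADREX against SHAM gave -0.32 ± 0.64 for Top2a (adjusted p = 0.771) and -0.41 ± 0.50 for Mki67 (adjusted p = 0.612), and adjusted p-values were at least 0.632 in the other comparisons.

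Of the genes of mitotic entry, Ccnb1 (cyclin B1) had 7.06, 4.24, 61.1 and 11.01 normalized counts in the ADREX air libraries, and its partner Cdk1 had 16.5, 9.53, 59.6 and 24.5. ADREX air 67 was again the library at the top of each. Foxm1, a factor that transcribes mitosis genes, had 32.8 there, also its highest value. Ccna2 (cyclin A2) was low, at 1.18 to 11.9 normalized counts, with its highest value in the same library. Cdc25b, the phosphatase that activates Cdk1, followed another pattern. It had 60.6, 48.2, 15.4 and 21.6 in ADREX ozone, 22.4, 54.01, 52.1 and 12.2 in ADREX air, 152, 39.1, 44.6 and 22.1 in SHAM ozone, and 31.3, 46.8, 45 and 30.1 in SHAM air, and its highest value lay in SHAM ozone 17.

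Of the mitotic kinases, Aurkb came nearest to a call. It encodes the kinase of the chromosomal passenger complex, which corrects the attachment of chromosomes. It had 27.4, 30.4, 26.3 and 40.3 normalized counts in ADREX ozone, against 6.04, 6.12, 14.1 and 20.6 in SHAM ozone. The groups did not overlap, and ADREX ozone was also above ADREX air (11.8, 9.53, 22.3 and 8.56). The log2 change under ozone was 1.48 ± 0.48 (adjusted p = 0.0513). Aurkb passed in 5 of 27 alternatives and had adjusted p-values of 0.0162 to 0.247 over them. Aurka, the kinase of the spindle poles, had 48.03, 36.7, 29.6 and 54.7 in ADREX ozone, 43.5, 32.8, 59.6 and 26.9 in ADREX air, 49.8, 72.2, 57.7 and 51.6 in SHAM ozone, and 37.2, 55.3, 51.3 and 62.2 in SHAM air, with no call.

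The checkpoint and exit genes were mostly low. Bub1b, Plk1, Birc5 (survivin, another subunit of the passenger complex) and Ube2c had no library above 14.9 normalized counts, except Birc5, which had 41.7 in ADREX ozone 84 and 18.1 in SHAM air 4. Bub1, a spindle checkpoint kinase, had 31.7 normalized counts in ADREX ozone 84 and 10.5 to 13.2 in the other ADREX ozone libraries, and its highest value, 37.2, lay in ADREX air 67. Cdc20, which activates the anaphase promoting complex, had 9.06, 9.79, 8.71 and 7.37 normalized counts in SHAM ozone, against 17.9, 22.8, 21.3 and 20.1 in SHAM air. These groups did not overlap, and with no filter on low values its log2 change was -1.14 ± 0.41 (adjusted p = 0.227). In ADREX it had 13.7, 16.8, 23.04 and 12.95 under ozone, against 4.71, 7.41, 13.4 and 18.3 in air, and these overlapped. Under ozone the ADREX libraries lay above the SHAM libraries (log2 0.83 ± 0.41 with no filter, adjusted p = 0.222).

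Further genes of the pathway were counted from 6 whole lists. Of 136 genes, 132 were in the table and 91 were tested. Under ozone, 7 of the 91 were higher and 4 lower in ADREX, beside 12.5% of all genes. In air 3 were higher, beside 3.53%, and 1, Cdkn1a, rose with ozone in SHAM, beside 1.58%. The counts from edgeR and DESeq2 were 12 and 13 under ozone, 1 and 5 in air, and 1 and 3 for ozone in SHAM. None passed for ozone in ADREX, where 14 had an unadjusted p under 0.05 and edgeR called 0 and DESeq2 2, or for the difference, where 12 had one and the tools called 0 and 3.

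Of 33 other replication genes tested, 3 were higher under ozone in ADREX than in SHAM. Timeless, which protects stalled forks, averaged 139 ± 56.2 normalized counts in ADREX ozone and 67.5 ± 10.6 in SHAM ozone (SD, n = 4 each; log2 0.97 ± 0.28, adjusted p = 0.0318). Pold3, a subunit of DNA polymerase delta, averaged 627 ± 26.3 and 363 ± 56.8 in the same order (log2 0.80 ± 0.25, adjusted p = 0.0439). Rfc2, a subunit of the loader of Pcna, averaged 216 ± 41.01 and 128 ± 32.4 (log2 0.77 ± 0.20, adjusted p = 0.0193), and its groups overlapped. Of the 33 genes, edgeR called 2 and DESeq2 3 under ozone.

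Of 18 other mitosis genes tested, Kif11, the motor that separates the spindle poles, was higher in ADREX under both exposures. It had 70.9, 89.03, 94.3 and 74.8 normalized counts in ADREX ozone, against 24.2, 42.8, 32.6 and 20.6 in SHAM ozone (log2 1.47 ± 0.30, adjusted p = 0.00560). In air it had 75.3, 90.02, 115 and 68.5 in ADREX, against 32.7, 25.2, 36.3 and 66.2 in SHAM (log2 1.16 ± 0.30, adjusted p = 0.0398). No ADREX library fell within the SHAM libraries of the same exposure. Wee1, the kinase that holds Cdk1 inactive, averaged 357 ± 172 in ADREX air and 64.99 ± 13.9 in SHAM air (log2 2.26 ± 0.43, adjusted p = 0.00795). Of the 18 genes, edgeR called 1 and DESeq2 2 in air.

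Of 13 other E2F, pocket and DREAM genes tested, E2f2, another activating E2F, was lower under ozone in ADREX, with 35.5, 39.8, 46.1 and 21.6 normalized counts in ADREX ozone, against 70.96, 95.4, 109 and 81.1 in SHAM ozone (log2 -1.33 ± 0.25, adjusted p = 0.00406). E2f1 and E2f2 thus differed in opposite directions in the same libraries. Of 15 genes tested from a list of the anaphase promoting complex and its partners, 3 passed under ozone. Anapc5 (log2 0.78 ± 0.13, adjusted p = 0.00131) and Anapc11 (log2 1.05 ± 0.25, adjusted p = 0.0136) were higher and Cdc27 was lower (log2 -0.68 ± 0.18, adjusted p = 0.0240). Of 10 growth factors and receptors tested, Egfr was lower under ozone (1488 ± 531 in ADREX and 3212 ± 756 in SHAM, log2 -1.16 ± 0.35, adjusted p = 0.0397). Tgfb1, which restrains the growth of hepatocytes, was higher by limma in ADREX under ozone (log2 0.84 ± 0.19, adjusted p = 0.0101) and in air (log2 0.72 ± 0.19, adjusted p = 0.0486). Among those 10 genes in air, edgeR called 0 and DESeq2 2.

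The tissue showed the markers of liver in every library: hepatocyte markers (Alb, Apoa1, Apob and others) summed to 100867 to 217478 RPM. Under ozone, 2 of 7 hepatocyte markers passed: Apoa1 was higher in ADREX (log2 1.41 ± 0.35, adjusted p = 0.0157) and Cps1 lower (log2 -1.09 ± 0.23, adjusted p = 0.00691), and Apob also did not overlap.

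Markers of other cells were set beside E2f1, Ccnd1 and Cdk6 under ozone. The 22 neural markers summed to 844 to 4853 RPM in ADREX ozone and to 79.8 to 3046 RPM in SHAM ozone, with Rbfox3 at 0 in 3 of 4 SHAM ozone libraries. All 11 neuron markers and all 10 oligodendrocyte and astrocyte markers tested had a log2 change above 0, and none of them passed (an unadjusted p under 0.05 was found for 5 neuron markers and 2 of the others, and edgeR and DESeq2 called 0). With the neural marker level as a covariate E2f1 had a log2 change of 1.59 (adjusted p = 0.00564) and Ccnd1 one of 1.94 (adjusted p = 0.0303), while that of Cdk6 was -1.14 and did not pass. Leaving out the 3 libraries highest in neural markers gave 1.83 for E2f1 (adjusted p = 0.0384), 2.40 for Ccnd1 (adjusted p = 0.0358) and -1.09 for Cdk6, which again did not pass.

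Kupffer cell and macrophage markers summed to 579 to 1190 RPM in ADREX ozone and to 473 to 647 RPM in SHAM ozone. By limma 3 of 9 (C1qa, C1qb and Clec4f) were higher in ADREX, and edgeR called 2 and DESeq2 3. Lymphocyte markers summed to 6.15 to 16.1 RPM in ADREX ozone and to 2.78 to 4.95 RPM in SHAM ozone, without overlap. Of 9 such markers 2 were abundant enough to test. Nkg7 was higher by limma, while edgeR called 0 and DESeq2 2 of those tested. Cd3d and Cd2 were each at 0 in 3 of 4 SHAM ozone libraries. Markers of the sinusoidal endothelium summed to 222 to 252 RPM in ADREX ozone and to 206 to 320.1 RPM in SHAM ozone, and 1 of 7 passed, Ptprb, which was lower in ADREX (log2 -1.06 ± 0.32, adjusted p = 0.0410). Erythroid markers summed to 10.02 to 192 RPM in ADREX ozone and to 68.9 to 455 RPM in SHAM ozone. Their median log2 change was -1.78, and none of the 3 tested passed by limma, edgeR or DESeq2, with 2 at an unadjusted p under 0.05. No stellate cell or cholangiocyte marker passed by limma under ozone, where an unadjusted p under 0.05 was found for 1 of 8 and 0 of 4, edgeR called 0 of either, and DESeq2 called 1 stellate cell marker. The part of these cells in the changes of E2f1, Ccnd1 and Cdk6 was not tested.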

How the data were processed

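Liver mRNA libraries of 4 groups of 4 were analysed from 1 deposited table of gene values, a signal that the authors made by dividing read counts by 1 size factor per library, as its steps show. Partek, DESeq2 and the rn6 build are named, without versions, in the submitters' processing notes. The aligner, the counter, the annotation and the handling of reads shared with paralogs or pseudogenes were not given in the sources used here. Whole reads were recovered from the steps of each column (100% of values within 0.01 of a whole number). Values were log2-transformed with a pseudocount of 1, and 12791 genes with a mean of at least 14.7 were fitted with limma 3.58.1 (trend, R 4.3.3) on 4 group means, with Benjamini-Hochberg adjustment over all of them; fold changes of low genes are understated on this scale. Alternatives were count tests of those reads by edgeR 4.0.16 and by DESeq2 1.42.0, other pseudocounts, filters and scalings, a neural marker covariate and left-out libraries. The limma fit was run on simulated data, which is no support for any single call. Groups follow the titles. Genes and lists were chosen with earlier results of these data known. Values in every library are given for genes that passed in a comparison, the gene of highest mean count in each role, Mki67, Top2a, and the largest rise and fall in each comparison; genes of other lists are named where they passed. Cdt1, Mcm6, Ccnb1, Cdk1, Aurkb, Cdc20 and the promoters were added after their values were seen.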

Additional observations from a re-analysis of the deposited data

Results flagged for a closer look

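In 8 of 128 group-by-gene sets of 4 libraries, 1 library lay far from the other 3 by Dixon's criterion. Chance alone meets it in about 1 of 20 sets of normally distributed values. The counts were not log-transformed for it and the sets share libraries, so that rate may not hold here. Values are normalized counts. In ADREX ozone, Bub1 had 31.7 in library 84, against 10.5 to 13.2 in the others, and Mcm4 had 80.7 in library 82, against 102.9 to 103.6. In ADREX air, library 67 had 133 for Top2a (others 22.01 to 30.7) and 61.1 for Ccnb1 (others 4.24 to 11.0), library 68 had 476 for Ccnd3 (others 281 to 311), and library 66 had 10.6 for Mcm5 (others 25.3 to 27.1). In SHAM air, library 3 had 15 for Aurkb (others 6.01 to 7.44) and 36.3 for E2f1 (others 16.4 to 18.1). Their causes were not tested.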

How the results depend on the processing

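Recomputed values are counted here for 32 results, each 1 gene in 1 comparison. These had an unadjusted p under 0.05 or were the largest rise or fall in a comparison. Of their 874 recomputed values, 835 kept their direction and were counted on the same side of the threshold. A further 11 kept the direction and lost the call, 28 gained a call and 0 reversed. As these results were picked for strong changes, few reversals could occur, and the count does not cover weaker results. The 835 include 4 DESeq2 values of 3 genes that had no adjusted p. These were counted as not called, although no threshold could be applied to them. Array quality weights raised the calls among the 32 genes to 2 for ozone in ADREX, 2 for ozone in SHAM, 5 for ADREX against SHAM under ozone and 4 in air, and those among all genes to 330, 1133, 3414 and 1456, with 182 for the difference in ozone effect. For ozone in ADREX, edgeR called 1 and DESeq2 2 of the 32. For ozone in SHAM a pseudocount of 10 gave 1. Under ozone the stricter filter (mean of at least 73.4), which tests 12 of the genes, gave 1. In air DESeq2 gave 1. Over all genes, DESeq2 called 570 for ozone in ADREX, 536 for ozone in SHAM, 248 for the difference and 835 in air, while edgeR called 49 for ozone in ADREX and 24 for the difference. For ozone in ADREX the count of 16 was 26 with a pseudocount of 10, 36 with no filter, 27 with the neural covariate and 2 with only the groups compared. In air the neural covariate gave 195 and only the groups compared 212. Without the 3 libraries highest in neural markers, counts were 1 for ozone in ADREX, 107 for ozone in SHAM and 479 under ozone. Without ADREX air 67 and ADREX ozone 84, an alternative chosen after seeing the data, they were 1, 369 and, in air, 1048, with 6 for the difference. Leaving out 1 library in turn gave 0 to 1 of the 32 for ozone in ADREX (0 to 50 of all genes), 0 to 3 for ozone in SHAM (38 to 658), 0 for the difference (3 to 33), 1 to 5 under ozone (787 to 1848) and 0 to 3 in air (194 to 1004). The highest counts of the 32 came without SHAM air 3 under ozone, in air and for ozone in SHAM, and without ADREX air 68 for ozone in ADREX (Cdk6, adjusted p = 0.0468). TMM scaling moved the share of higher calls under ozone to 33.1% (559 of 1690), against 48.2% (772 of 1601). For ozone in ADREX it was 21.1% (4 of 19), against 31.2% (5 of 16). For the difference it was 7.69% (1 of 13), against 21.4% (3 of 14), so the shares in these last comparisons rest on few genes. The cause of these shifts was not tested. No paired analysis was possible because the groups share no replicate numbers. Low depth limits the 8 genes under the filter, 7 of which had at most 3 reads in some library.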
